A study of Mus musculus with 6 samples.

Results

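Small nucleolar RNAs (snoRNAs) and their relatives of the Cajal body (scaRNAs) were examined in long-RNA libraries from mouse brain. The members are the 150 most abundant of the 1558 genes that the GENCODE M21 annotation types as snoRNA or scaRNA, ranked by their reads summed over all libraries. The study had 6 libraries, 3 from whole brains labelled WT and 3 from brains labelled TRMT1L KO, a knockout of Trmt1l, which encodes a relative of the tRNA methyltransferase TRMT1. The labels call these biological triplicates of total RNA size-selected above 200 bases, and give no strain, sex, age, litter or knockout allele. The members were chosen by read counts in these same libraries, so the order and the levels below are a description. The comparison of genotypes is a separate measure, since both genotypes entered the sum.

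snoRNAs guide chemical modification of other RNAs by base pairing. Box C/D snoRNAs carry the C and D boxes near their ends and direct 2′-O-methylation by fibrillarin, whereas H/ACA snoRNAs end with an ACA box and direct pseudouridylation by dyskerin. scaRNAs use either or both designs, reside in Cajal bodies and act on spliceosomal small nuclear RNAs. Most mammalian snoRNAs are excised from introns of host genes, and in brain the imprinted noncoding transcript Snhg14 carries long arrays of C/D snoRNA copies.

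The sequences that follow were read from the GENCODE M21 transcripts (GRCm38) and show the designs among members that the results turn on: abundant scaRNAs, the most abundant H/ACA snoRNA, the member with the smallest p between genotypes and the one inside the serotonin receptor gene Htr2c. In the C/D-type entries the capitals mark the C box TGATGA and the D box CTGA, and in the H/ACA-type entries the ACA that lies 3 bases before the end.
Gm25395: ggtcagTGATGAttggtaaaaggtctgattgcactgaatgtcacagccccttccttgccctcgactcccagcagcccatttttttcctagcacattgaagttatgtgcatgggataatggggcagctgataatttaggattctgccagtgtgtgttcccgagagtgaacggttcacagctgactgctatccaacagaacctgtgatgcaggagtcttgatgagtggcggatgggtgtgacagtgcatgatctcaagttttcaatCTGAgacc
Scarna6: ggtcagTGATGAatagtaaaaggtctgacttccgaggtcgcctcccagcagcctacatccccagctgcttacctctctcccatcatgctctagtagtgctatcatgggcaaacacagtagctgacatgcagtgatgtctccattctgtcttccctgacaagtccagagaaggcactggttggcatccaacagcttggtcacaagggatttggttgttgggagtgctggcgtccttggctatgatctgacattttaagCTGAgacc
Gm22442: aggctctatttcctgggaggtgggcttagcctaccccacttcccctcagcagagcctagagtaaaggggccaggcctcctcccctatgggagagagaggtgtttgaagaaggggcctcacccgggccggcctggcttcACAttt
Snora73b: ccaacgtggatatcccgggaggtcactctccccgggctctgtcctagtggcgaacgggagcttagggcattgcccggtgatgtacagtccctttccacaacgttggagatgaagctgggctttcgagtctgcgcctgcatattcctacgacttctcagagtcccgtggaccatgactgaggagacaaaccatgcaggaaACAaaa
Gm22422: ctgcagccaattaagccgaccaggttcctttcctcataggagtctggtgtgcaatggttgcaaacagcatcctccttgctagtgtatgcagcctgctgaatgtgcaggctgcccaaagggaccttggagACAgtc
Snora35: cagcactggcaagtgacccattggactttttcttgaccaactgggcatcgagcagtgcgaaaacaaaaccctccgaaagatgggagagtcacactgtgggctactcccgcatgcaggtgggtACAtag

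By name, 9 members were C/D snoRNAs (Snord), 7 were H/ACA snoRNAs (Snora) and 4 were scaRNAs (Scarna), while the other 130 carried symbols that state no class, 128 of them Gm symbols. The annotation typed 14 members as scaRNA, and with Scarna9, which it types as snoRNA, 15 were scaRNAs by name or type. Over the whole annotated RNA, 43 members (28.7%) held both TGATGA within the first 20 bases and CTGA within the last 20, against 19.2% of the 1408 non-members. These 43 had a median length of 79 bases, and 27 of them lay in Snhg14. An ACA 3 bases before the end was found in 43 members (28.7%), with a median length of 133 bases, against 18.3% of non-members. Both searches used the transcript strand, and a match describes the letters only. Among the 130 members without a class name, 35 held both C/D boxes, 37 held the ACA end and 58 held neither set in these windows. The ACA end was found in 85.7% of the 35 non-member genes named Snora. The C box, whether or not the D box was found, was in 70.8% of the 89 non-member genes named Snord. Of the members by name, 5 of 7 Snora held the ACA end and 6 of 9 Snord held both C/D boxes.

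The 150 members held 71158 reads, 90.3% of the reads on all snoRNA and scaRNA genes and 0.0346% of all reads on genes. Of the 1558 annotated genes, 583 had at least 1 read and 975 had none. Abundance was steep: the first 10 members held 58.7% of the members' reads, and the median member had 156 reads over the 6 libraries. At the boundary, the last members Gm24656, Gm26097 and Gm24992 had 73, 71 and 71 reads, and Gm24607, Gm22255 and Gm24610 just outside had 70 each. The 15 scaRNAs held 50.9% of the members' reads, the C/D snoRNAs by name 4.47% and the H/ACA snoRNAs by name 4.71%.

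Gm22009, typed as scaRNA, came first. It spans 343 bases (chr3:69085105-69085447, minus strand), lies in intron 12 of 16 of the importin gene Kpna4 and held both C/D boxes. Its reads were 2955, 2528 and 2494 in WT and 2676, 2240 and 2578 in KO, in all 21.7% of the members' reads. Gm25395, also typed as scaRNA (chr1:87776938-87777209, plus strand, intron 9 of 17 of the autophagy gene Atg16l1), was second with 6136 reads. Scarna2 (chr3:108554338-108554751, minus strand, outside annotated genes) had 4075 reads, and Gm22442 (chr11:69350518-69350661, minus strand, intron 28 of 38 of the chromatin remodeller gene Chd3) had 4055. Scarna13, in the only intron of the noncoding gene Snhg10, followed with 2690.

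The libraries were made from RNA above 200 bases, and most members are shorter: lengths ran from 65 to 414 bases with a median of 127. The 10 members over 200 bases held 48.8% of the members' reads, with a median of 1838 reads against 139 for the 140 members of 200 bases or less. Among the first 10 ranks, 7 were over 200 bases. The 28 other annotated genes over 200 bases held 63 reads in all, as genes outside the ranking must hold few. Mature RNA, unspliced precursor and excised intron cannot be told apart in these gene counts.

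**Figure D1:**
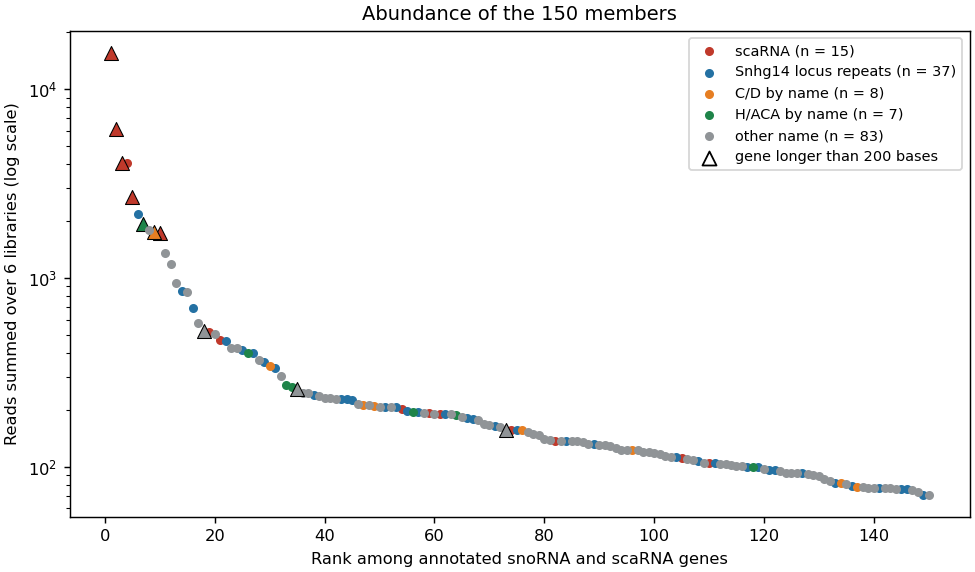
Reads summed over the 6 libraries (log scale) against rank for the 150 members, coloured by class or locus; triangles are genes over 200 bases. The first 10 members hold 58.7% of the reads, and 7 of them are triangles.

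Of the members, 116 lay in an intron of a same-strand host, 28 lay between the annotated transcripts of Snhg14 and 6 lay outside annotated genes. The 144 members with a host fell in 100 host genes, and 104 members had a protein-coding host. Snhg14 held 37 members, 8 hosts held 2 each, and no other host held more than 1. Intron lengths had a median of 3497.5 bases, 30 introns were over 10 kb and 21 were under 1 kb. Only 6 intronic members lay within 100 bases of the downstream exon. Members of 1 host could differ widely: in intron 5 of the centriole gene Cep295, Gm24339 had 1792 reads and Scarna9 105, a ratio of 17.1. In Zbed3, Snora47 and Gm22661 shared an intron and had 187 and 182 reads.

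Counting rules bear on which genes could be members. A read counted only where it overlapped 1 gene on its strand, and 1 of 150 members (Scarna13, with Mir3069) overlapped an exon of another gene on the same strand, against 228 of 1408 non-members (16.2%). Of these 229 overlapping genes, 199 had no read. Named snoRNAs were the ones most often overlapped, 28 of the 35 Snora and 41 of the 89 Snord genes among the non-members. The pair in Rcc1, the gene of a chromatin-bound nucleotide exchange factor, shows the contrast: Snora73b had 1935 reads and Snora73a, which overlaps an exon of Snhg3, had 2. Snord47 in Gas5 and the 325-base Scarna10 in Ncapd2 had 0, and no Rnu3 (U3) copy exceeded 5. The strand column also decides membership: ranked by unstranded counts, 106 of the 150 stayed, and Snora73b and Gm23711, which lie opposite exons of other genes, had no unstranded read. Absence from the 150 is thus no measure of abundance for such genes.

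To set the members against the transcripts that carry them, the reads per kb of each intronic member were divided by the exon reads per kb of its host. Any read touching a short gene counts in full, which raises this ratio for short genes. Intronic miRNA genes, counted the same way, give values to set beside it, although they are shorter: those used had a median of 87.5 bases, against 130 for intronic members. The median ratio was 0.456 over the 116 intronic members, with 27 above 1. It was 0.657 over the 146 intronic genes typed as miRNA (including Snord43, which the annotation types so) that had at least the 71 reads of rank 150, with 39 above 1, and 0.272 over all 606 intronic miRNA genes with a read, with 68 above 1. The ratio was 1.41 for the 13 intronic scaRNAs (8 above 1), 1.39 for the 7 intronic C/D snoRNAs by name and 1.24 for the 6 H/ACA snoRNAs by name. For the 9 intronic members over 200 bases it was 4.38, and for the 107 of 200 bases or less 0.437. In introns over 10 kb it was 0.377, with 2 of 30 members above 1.

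A small set stood far above its hosts. Snora73b reached a ratio of 23.0 in Rcc1, Scarna13 22.4 in Snhg10, Gm24339 22.1 in Cep295, Gm22009 20.5 in Kpna4 and Gm25395 15.2 in Atg16l1. Single intronic miRNA genes reached such values too, up to 20.5 among those with at least 71 reads and 78.96 among all 606. At the other end, Gm26448 in the ribosomal protein gene Rpsa had a ratio of 0.189 and Gm25129 in Snhg11 0.216, although they ranked 18th and 12th. The ratios of the miRNA genes with at least 71 reads ran from 0.038 to 20.5, so wide a range that it holds most members of any length. How many reads of the shorter members came from host introns was not tested. On the opposite strand fell 0.338% of the members' stranded reads, a share that the ranking on 1 strand itself keeps low, against 5.30% for all genes. The members above 10% were Gm25604, Snord89 and Gm26387 (18.5%, 11.4% and 49.7%).

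**Figure D2:**
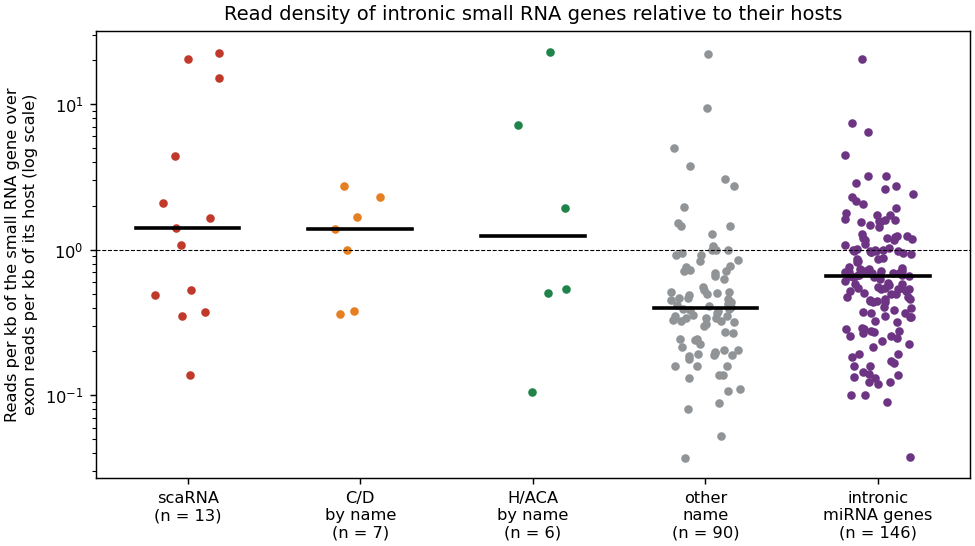
Reads per kb of each intronic small RNA gene over the exon reads per kb of its host (log scale), by class, with medians as bars; miRNA genes are those with at least 71 reads. The medians are 1.41 for scaRNAs and 0.657 for miRNA genes, and members without a class name lie mostly below 1.

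Reads on genes ranged from 31201119 to 36145961 per library. The targeted gene Trmt1l was at 34.4 ± 1.26 CPM (reads scaled to the library's effective size) in the WT libraries and at 2.87 ± 0.171 in the KO libraries (mean ± SD over 3), a log2 ratio of -3.58 with an edgeR adjusted p of 6.95e-10. Reads mapping to several places were 4.61 to 5.16% of mapped reads in WT and 5.25 to 5.60% in KO, and were not counted on any gene. Neuronal markers (Snap25, Syt1, Rbfox3, Slc17a7, Gad1) summed to 3830 to 3994 CPM in WT and 3729 to 3917 in KO. Among these and the markers of glia, endothelium, choroid plexus and blood, none passed the adjusted threshold. Summed choroid plexus markers were 292 to 344 CPM in WT and 350 to 420 in KO, and summed oligodendrocyte markers 3169 to 3547 and 2672 to 3216. Red blood cell markers summed to 98.4 to 135 CPM in WT and 88.6 to 222 in KO, and microglial markers to 123 to 150.6 and 115 to 139. Astrocyte markers summed to 837 to 877 and 807 to 970, with Gfap at 248 CPM in KO 3 and between 115 and 140 in the other libraries. The smallest p among the markers was that of microglial P2ry12, lower in every KO library (log2 difference -0.34, edgeR adjusted p = 0.550). Their part in the values below was not tested. Fewer cells of a type and less RNA per cell cannot be told apart in whole brain.

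No member differed between TRMT1L KO and WT brain at an adjusted p under 0.05. All 150 passed the filter on low counts and were tested among 21237 genes with edgeR's quasi-likelihood test, and the smallest adjusted p of a member was 0.576. Of all genes tested, 0.00942% (2 genes, one of them Trmt1l) were called. At an unadjusted p under 0.05 there were 9 members (6%; 3 higher and 6 lower in KO), against 7.92% of all genes (4.54% higher and 3.38% lower). DESeq2 gave 4 such members, against 5.46% of all genes, and limma-voom 8, against 7.68%, and neither called any after adjustment. The 3 libraries of each genotype did not overlap for 13 members (8.67%; 4 higher and 9 lower in KO), against 14.4% of all genes (7.46% higher and 6.97% lower). The members' shares were thus near or below the background.

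The members' log2 fold changes had a median of -0.043, quartiles of -0.19 and 0.12, and a range from -0.90 to 0.69. Of all genes tested the median was 0.00013. In 86 of 150 members the value was below 0, against 49.9% of all genes. Precision followed depth: the median standard error (SE) was 0.266 for members, 0.104 for all genes and 0.113 for the 10 members over 200 bases. For 140 members (93.3%) the value lay within ±0.5, against 96.8% of all genes. The members' summed level was 371.6, 347.6 and 336.4 CPM in WT and 352.3, 333.9 and 337.2 in KO, and these ranges overlap.

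**Figure D3:**
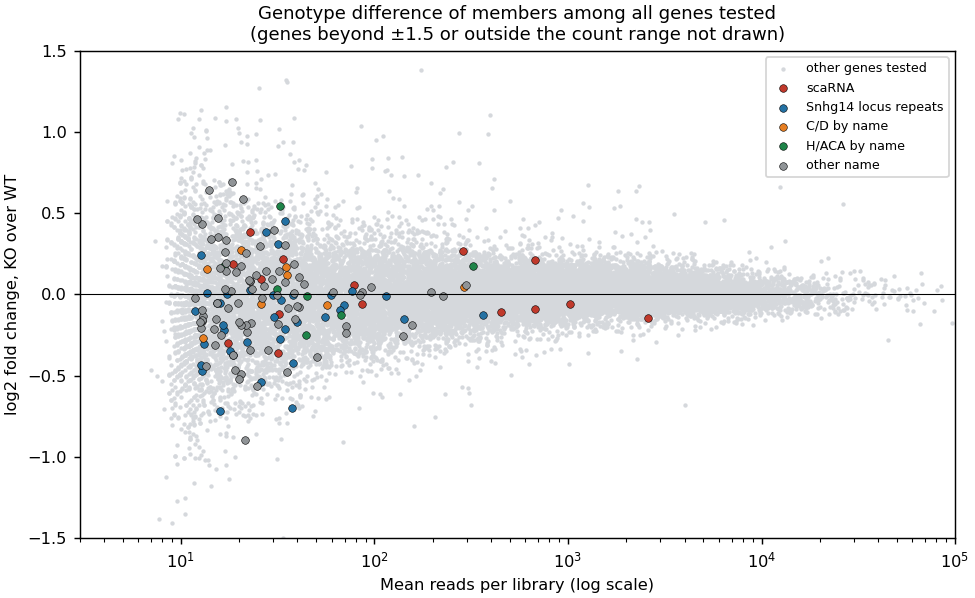
log2 fold change (KO over WT) against mean reads per library (log scale) for the members, coloured, and other genes tested, grey. Genes beyond the drawn ranges of change or reads, such as Trmt1l, are left out. Members spread more widely at low counts, as the other genes do, and lie between -0.90 and 0.69.

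Among scaRNAs, which guide modification of spliceosomal RNAs, Gm22009 was at 79.2 ± 2.98 CPM in WT and 71.6 ± 5.24 in KO (SD, n = 3; log2 fold change -0.15, SE 0.0598). Its libraries overlapped, since KO 1 at 77.0 CPM lay above WT 3 at 75.8. This member had the smallest SE of the 150, and its unadjusted p of 0.0325 became 0.614 after edgeR's adjustment. Its value was -0.20 without KO 1 and -0.096 without KO 2. Gm25395 differed by -0.06 (SE 0.0865), Scarna2 by -0.09 (SE 0.0753) and Scarna13 by -0.11 (SE 0.0988), all with overlapping libraries. Without WT 1 the Scarna2 value was -0.013, and leaving out single libraries took Scarna13 from -0.18 to -0.032.

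Scarna6 had 293, 215 and 259 reads in WT and 334, 299 and 325 in KO. Every KO library was above every WT library in CPM, at 7.59 ± 0.643 in WT and 9.16 ± 0.393 in KO, 0.27 on the log2 scale (SE 0.0991). Its adjusted p was 0.581 by edgeR (unadjusted 0.0193). The scaRNA in the same host, Gm25395, was at -0.06, and Atg16l1 itself at 0.04 (SE 0.0512). Gm22442 had 720, 564 and 559 reads in WT and 859, 660 and 693 in KO, a difference of 0.21 in log2 (SE 0.101) whose edgeR adjusted p was 0.628. Without KO 1, at 24.7 CPM the highest library, the difference was 0.085, and KO 3 at 19.2 lay below WT 1 at 19.8. Scarna9, at 20, 14 and 23 reads in WT and 21, 16 and 11 in KO, differed by -0.30 in log2, with SE 0.319, and by -0.066 without KO 3 and -0.54 without KO 1.

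H/ACA snoRNAs by name, whose class directs pseudouridylation, had 4 values above 0 and 3 below. Snora73b, the most abundant, had 440, 205 and 252 reads in WT and 400, 308 and 330 in KO. WT 1 alone was at 12.1 CPM and the other WT libraries at 6.54 and 7.66, so the WT mean of 8.76 ± 2.94 spanned the KO mean of 9.93 ± 1.37. Its log2 difference of 0.17 (SE 0.191) was 0.48 without WT 1 and 0.0049 without WT 2. Snora17, outside annotated genes (chr2:26639190-26639321, minus strand), had 31, 22 and 24 reads in WT and 35, 36 and 46 in KO. Its KO libraries were all higher, by 0.55 in log2 (SE 0.215), and edgeR's adjusted p was 0.600. Snora30 (-0.13), Snora31 (-0.01) and Snora23 (-0.25) had overlapping libraries, and Snora23 was at -0.45 without WT 2 and -0.11 without WT 1. Summed over the 7 H/ACA snoRNAs by name, WT was at 19.8, 13.1 and 13.9 CPM and KO at 18.02, 17.2 and 15.4, so WT 1 was highest and the other WT libraries lowest.

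The less abundant scaRNAs had wider errors. Gm24644, in an intron of the F-box gene Fbxo3, had 35 reads in each WT library and 29, 28 and 28 in KO, -0.36 in log2 (SE 0.204). Gm26347, in the ubiquitin ligase gene Rnf41, had 19, 18 and 21 reads in WT and 19, 19 and 41 in KO, so its log2 difference of 0.38 (SE 0.320) came with a single high library. Over all 15 scaRNAs the summed level was 189.5, 177.8 and 171.7 CPM in WT and 185.5, 163.6 and 170.4 in KO. KO 1 lay between the WT libraries, and the other KO libraries lay below them.

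C/D snoRNAs by name, the methylation guides, had 5 values above 0 and 4 below, and none had an unadjusted p under 0.05. Snord17, in the first intron of the sorting nexin gene Snx5, had 322, 250 and 268 reads in WT and 332, 232 and 337 in KO, 0.05 in log2 (SE 0.126). Snord71 was at -0.06, Snord53 at 0.12 and Snord104 at 0.17, each with an SE of at least 0.171.

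**Figure D4:**
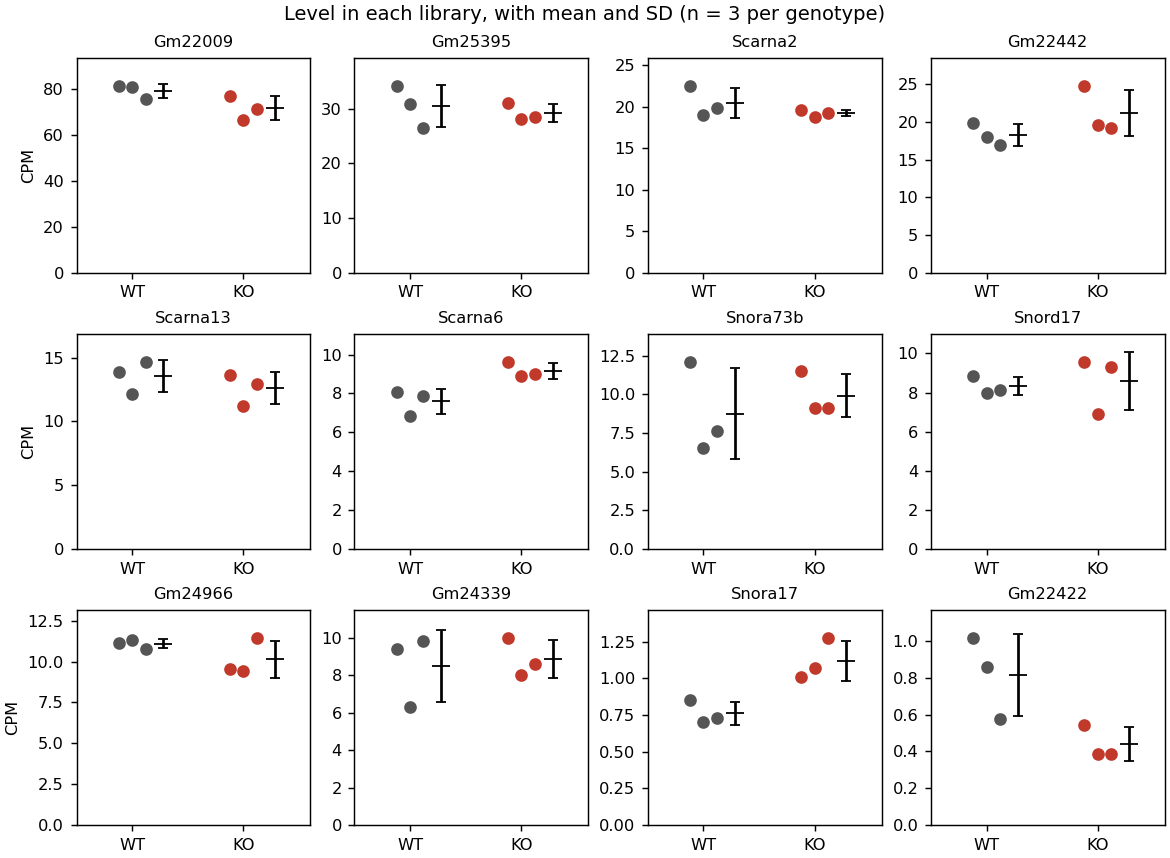
CPM in each library for 12 members, with the mean and SD beside the 3 libraries of each genotype. Scarna6 and Snora17 are higher and Gm22422 lower in every KO library, while the other 9 panels overlap; none passed the adjusted test.

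The member with the smallest p was Gm22422, which ends with an ACA box in its printed sequence and lies in the only intron of Trmt10c, the gene of a mitochondrial tRNA methyltransferase subunit (chr16:56035753-56035887, minus strand). It had 37, 27 and 19 reads in WT and 19, 13 and 14 in KO. In CPM the highest KO library, at 0.547, lay just below the lowest WT library, at 0.577. The difference was -0.90 in log2 (SE 0.294). Its unadjusted p of 0.0105 became 0.576 after edgeR's adjustment. Trmt10c itself was at 11.2 ± 0.365 CPM in WT and 10.4 ± 0.494 in KO (log2 fold change -0.11, SE 0.0836), again with no overlap and an adjusted p of 0.770. Gm25848, in an intron of the ubiquitin ligase gene Fbxo45, had 16, 16 and 17 reads in WT and 29, 22 and 26 in KO, 0.59 in log2 (SE 0.248), for which edgeR gave an adjusted p of 0.622.

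Other abundant members without a class name had values near 0 or below it. Gm25776, with an ACA end in an intron of the general transcription factor gene Gtf2a1, had 315, 133 and 222 reads in WT and 263, 191 and 231 in KO (-0.01, SE 0.207), and its spread was widest within WT. Gm25129 in Snhg11 had 227, 183 and 166 reads in WT and 186, 194 and 223 in KO (0.01, SE 0.118). Gm24336, in the gene Cwf19l1, had 171, 132 and 147 reads in WT and 143, 122 and 125 in KO. Every KO library was lower in CPM, at -0.26 in log2 (SE 0.125, edgeR adjusted p = 0.637). Gm24401 was at -0.24 (SE 0.151), with KO libraries below WT, and Gm25291 at -0.20 (SE 0.167) and Gm25117 at -0.19 (SE 0.168) had overlapping libraries. Gm26448 in Rpsa was at 0.02 (SE 0.148), while Rpsa itself was at 0.18 (SE 0.0402, edgeR adjusted p = 0.550).

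The 37 members in Snhg14 are the largest group with 1 host. Snhg14 carries 208 annotated snoRNAs in these data, 137 of a repeat whose commonest length is 79 bases and 71 of a repeat named for its Snord116 members, 94 bases long in Snord116l12. Of the members 30 belonged to the first repeat and 7 to the second. The annotation used here gives the 79-base copies Gm symbols. Printed are the 79-base members with the most reads (Gm24966, Gm25121) and those with the smallest p between genotypes (Gm24657, Gm24495), with the 18 bases before the D box in capitals. From the other repeat come the named Snord116l12 and Gm22373, which had the most reads, with the C and D boxes in capitals.
Gm24966: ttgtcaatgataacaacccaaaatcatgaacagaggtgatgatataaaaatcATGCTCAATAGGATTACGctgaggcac
Gm25121: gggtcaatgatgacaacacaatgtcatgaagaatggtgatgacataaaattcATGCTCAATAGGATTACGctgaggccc
Gm24657: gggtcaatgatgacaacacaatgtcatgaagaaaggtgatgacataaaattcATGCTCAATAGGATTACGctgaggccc
Gm24495: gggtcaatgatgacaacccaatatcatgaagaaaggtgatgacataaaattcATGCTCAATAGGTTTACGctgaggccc
Snord116l12: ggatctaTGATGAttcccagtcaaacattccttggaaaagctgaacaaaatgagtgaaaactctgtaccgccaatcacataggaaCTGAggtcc
Gm22373: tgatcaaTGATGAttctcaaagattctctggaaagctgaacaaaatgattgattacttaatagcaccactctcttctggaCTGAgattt

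In C/D snoRNAs the bases just upstream of the D box pair with the target. The commonest 18 bases there, atgctcaataggattacg, occurred in 19 of the 30 members and in 105 of the 208 annotated copies in Snhg14. Their reverse complement, cgtaatcctattgagcat, was searched in all 141767 annotated transcripts. It occurred in 2 transcripts, both of Htr2c, the gene of the serotonin 2C receptor, and allowing 1 mismatch added no other gene. The match is to letters and shows no pairing in these brains. Counting positions from 1 at the 5′ end of the 18 bases, 6 members differed from it at a single position: Gm22496, Gm25175, Gm24969 and Gm25870 by C17T, Gm25648 by G18T and Gm24495 by A13T. The 19 exact members held 5909 reads and these 6 held 1561. Htr2c was at 75.0, 71.7 and 77.2 CPM in WT and 75.3, 61.5 and 64.5 in KO, and the libraries overlapped (log2 fold change -0.15, SE 0.0712, edgeR adjusted p = 0.628). Htr2c is also the host of Snora35, whose sequence is printed above: it had 16, 16 and 14 reads in WT and 18 in each KO library (log2 fold change 0.17, SE 0.263).

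Reads were uneven across the copies. Gm24966 had 2177 reads, 26.6% of those on the 79-base members, and Gm22373 had 848, 52.0% of those on the Snord116-repeat members. Gm22373 is a divergent member of that repeat, 71.3% identical to Snord116l12 where every other copy was at least 92.6% identical, and it lies nearest to the Snhg14 start. Copies identical in sequence could not keep reads that lay wholly within them. Of the 79-base repeat, 97 copies shared their sequence with another copy and held 3205 reads, while the 40 with a sequence of their own held 6817. Of the Snord116 repeat, 50 copies shared their sequence and held 360 reads, and the 21 others held 1981. No read was counted on 38 of the 137 copies of the 79-base repeat and on 22 of the 71 of the other. Reads differed along the locus together with how many copies had a sequence of their own. The 68 copies of the 79-base repeat more than 491 kb from the Snhg14 start included 26 members and held 8616 reads, and 29 of these copies had a sequence of their own. The 69 nearer copies included 4 members and held 1406 reads, and 11 had a sequence of their own. Among copies with a sequence of their own, the 29 farther ones held 6010 reads with a median of 77, and the 11 nearer ones 807 with a median of 56. Among copies that shared a sequence, the 39 farther ones had a median of 13 reads and the 58 nearer ones 2. In the Snord116 repeat, split at 207 kb, the 36 nearer copies held 1469 reads, most of them on Gm22373, and the 35 farther ones 872.

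**Figure D5:**
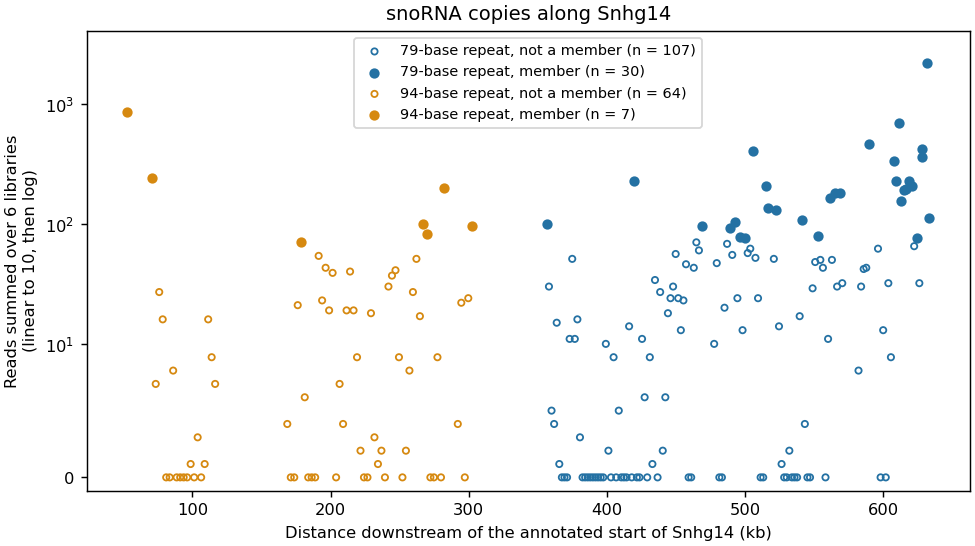
Reads summed over the 6 libraries (linear to 10, then log) for each annotated snoRNA copy against its distance from the Snhg14 start; filled points are members. The 79-base copies with the most reads lie toward the far end, where Gm24966 has 2177.

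In KO, 29 of the 37 Snhg14 members had log2 fold changes below 0, with a median of -0.13, against 49.9% of all genes below 0. This count was made after seeing the data, and the copies share a host and are not independent. The other 113 members divided 56 above and 57 below 0, with a median of -0.00061. Snhg14 itself was at 729 ± 24.0 CPM in WT and 676 ± 13.0 in KO, with every KO library below every WT library (log2 fold change -0.11, SE 0.0395, unadjusted p = 0.0167, edgeR adjusted p = 0.579). The share of reads mapping to several places, which are lost to repeated copies, was higher in every KO library than in every WT library. Its part in these values was not tested. The summed level of the 37 members was 48.3, 55.0 and 46.3 CPM in WT and 42.7, 46.9 and 48.3 in KO, which overlap. Without WT 2, 23 of the 37 were below 0, and without WT 3, 32 were.

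Single Snhg14 members differed in both directions without passing adjustment. Gm24966 had 405, 355 and 355 reads in WT and 331, 318 and 413 in KO, a log2 difference of -0.13 (SE 0.0964), and KO 3 was the highest library in CPM. Its value was -0.22 without KO 3 and -0.080 without KO 2. Gm24657 had 39, 61 and 37 reads in WT and 25, 31 and 32 in KO (-0.70, SE 0.265), its sequence occurs in 3 copies, and without WT 2 the value was -0.38. Gm24495 had 23, 18 and 18 reads in WT and 11, 12 and 14 in KO (-0.72, SE 0.272). Both had fewer CPM in every KO library than in any WT library. Gm24417 was at -0.54 (SE 0.238), with KO libraries below WT. Gm26488 went the other way at 0.45 (SE 0.215), with 29, 29 and 27 reads in WT and 33, 41 and 47 in KO. The edgeR adjusted p-values for the 5 lay between 0.590 and 0.770. Snord116l12 differed by -0.17 (SE 0.257) and Gm26097 by -0.10 (SE 0.401).

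Host genes of the members gave no called difference either. Of the 99 hosts other than Snhg14, all were tested, none had an adjusted p under 0.05, and 13 had an unadjusted p under 0.05 (7 higher and 6 lower in KO), against 7.92% of all genes (4.54% higher and 3.38% lower). Their largest absolute log2 fold change was 0.38. Across 107 pairs of a member and its host outside Snhg14, the log2 fold changes had Pearson's r = 0.13 and Spearman's rho = 0.10. These pairs are genes in the same 6 libraries and not replicates. The median absolute log2 fold change was 0.17 for these 107 members and 0.051 for their 99 hosts. Precision differed as well, with a median SE of 0.266 over all 150 members and 0.104 over all genes tested.

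The proteins that build and carry these RNAs were taken as a list of 34 genes, of which 33 were tested. None was called, 26 had values above 0, where 49.9% of all genes were below 0, and the median log2 fold change was 0.036. The C/D core (Fbl, the methyltransferase fibrillarin, with Nop56, Nop58 and Snu13) lay between -0.018 and 0.064. The H/ACA core (Dkc1, the pseudouridine synthase dyskerin, with Nop10, Nhp2 and Gar1) lay between -0.023 and 0.086. At an unadjusted p under 0.05, 3 of the list were higher and 1 lower in KO, against 4.54% and 3.38% of all genes. Wrap53, which carries scaRNAs to Cajal bodies, was at 0.24 (SE 0.0856), the Cajal body and nucleolar chaperone Nolc1 at 0.15 (SE 0.0518) and the assembly helicase Ruvbl2 at 0.19 (SE 0.0761). Naf1, an assembly factor of H/ACA particles, was lower: 13.0, 14.7 and 13.6 CPM in WT and 12.3, 10.6 and 11.2 in KO, -0.28 in log2 (SE 0.0885). The edgeR adjusted p of these 4 lay between 0.576 and 0.608.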

How the data were processed

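Per the labels, total RNA of whole brain was size-selected and sequenced with a TruSeq Total RNA kit. The submitters' processing notes name cutadapt 1.9.1 and STAR 2.7.0f. The authors deposited raw read counts per gene for 6 libraries, unstranded and for each strand. The build and annotation are not given in the sources used here, but all 55450 gene identifiers equal those of GENCODE M21 (GRCm38), which supplied names, positions and sequences. The column holding about 95% of stranded reads was used. The rows without a gene (unmapped, multimapping, no feature, ambiguous) were left out of library sizes. edgeR 4.0.16 was run with filterByExpr, TMM scaling and a quasi-likelihood test of genotype on all 6 libraries, with Benjamini-Hochberg adjustment over 21237 genes. The fit was also run on simulated counts, whose outcome is not given here, so no power for the members is stated. CPM were computed with the TMM sizes. Alternatives used DESeq2 1.42.0, limma 3.58.1, other scalings, filters, strands and rankings, a replicate block, and each library left out. Named members are the 5 most abundant of each class, the 5 with the smallest p in each direction and those at the boundary; others named (such as Snora35 and Gm25121) were chosen after their values were seen, and 1 of the 9 members with an unadjusted p under 0.05 is not reported by name here. The members and lists were chosen with earlier results of these data known. Nothing in the labels says that libraries came from separate animals beyond the word biological, so p-values measure the spread between these libraries.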

Additional observations from a re-analysis of the deposited data

How the results depend on the processing

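No member and no snoRNP protein was called under any of the alternatives run. The counts of members with an unadjusted p under 0.05 depended on the setting: 1 higher and 2 lower in KO with a mean count of at least 50, which left 32 members, and 1 higher and 3 lower with DESeq2's Wald test, with or without its independent filtering (the run without it was added after seeing the data, because 1 member had an adjusted p with it). The share of all genes at that threshold was 8.96% and 5.46% in these settings, and 7.92% as reported. Leaving out each library in turn gave 0 to 4 members higher and 2 to 6 lower, while the share of all genes in either direction ran from 5.50% to 8.58%. The same fits gave a median log2 fold change from -0.096 (without WT 3) to -0.015 (without WT 2), and a summed level from -0.075 to -0.0030 on the log2 scale. Without WT 1 there were 2 members lower, and without WT 2 there were 0 higher and 3 lower. Snora31 turned to 0.0014 with unstranded counts, and Gm24992 to 0.15 with limma-voom and 0.014 with the replicate block. Leaving out 1 library also turned the sign of Snora31 (-0.18 to 0.20), Gm24992 (-0.37 to 0.58), Gm26097 (-0.40 to 0.29), Gm25395 (-0.15 to 0.030), Gm24339 (-0.12 to 0.17), Snord17 (-0.038 to 0.18), Snord71 (-0.13 to 0.030), Snord116l12 (-0.51 to 0.025), Snord53 (-0.010 to 0.28), Snord104 (-0.0021 to 0.35) and Snora30 (-0.29 to 0.029), all of them values with no called difference. The cause was not tested. The replicate block gave 3 members higher and 5 lower (6.85% of all genes). Same-numbered libraries did not deviate together (correlations 0.040, -0.031 and -0.058). With 3 libraries per genotype these correlations show no pairing by number and cannot exclude one. Ranking by WT libraries alone shared 145 of the 150 members, by counts per length 138, by CPM 150 and by unstranded counts 106. Depth limits the members unequally, with SEs from 0.0598 to 0.448.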
